A study of Mus musculus with 10 samples.

Results

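The collagen genes of the mouse testis are described here across 13 cell populations, in RNA and in accessible chromatin. A gene counted as a collagen gene when its symbol was Col, a number, the letter a and a number, a rule that uses no measured value. It found 44 genes among the 28125 genes of the scRNA-seq matrix, and all 44 were also among the 30657 nuclear genes of the scATAC-seq matrix.

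Nuclei were taken from the testes of wild-type mice at 11, 17 and 25 days post partum (dpp). Adult testes, at 8 weeks, came from control mice (Cre/+) and from the conditional knockout (Nfya-CKO), all on the C57BL/6J background. Both adult genotypes carry Stra8-Cre, which is active in male germ cells, and in Nfya-CKO mice it deletes exons of floxed Nfya, a subunit of the transcription factor NF-Y. Each condition gave 1 library per assay, and the number of animals behind a library is not given in the sources used here. Tubules were freed with collagenase and trypsin before nuclei were isolated, so the values are nuclear RNA of cells that passed this digestion. The deposited matrices hold 1 mean per population, pooled over libraries. No population therefore has replicates, no p-value is given, and differences are described by their size and by the share of all genes that reach the same size.

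The 13 populations are 9 control germ populations, 1 population of spermatogonia found in the library labelled Nfya-CKO, and 3 populations outside the germline. In order of differentiation the control germ populations are undifferentiated spermatogonia (SpG), differentiating SpG, preleptotene (pL), early leptotene to zygotene (eL/L/Z), leptotene to early pachytene (L/Z/eP), mid to late pachytene (mP/lP) and diplotene (D) spermatocytes, round spermatids (RS) and elongating spermatids (ES). The others are Sertoli cells, further somatic cells (here "other somatic") and cells the authors left as unknown. RNA values are the mean number of unique molecular identifiers (UMIs) per 10000 UMIs of a cell. Accessibility values are per 1000000 over nuclear genes. Values of different genes are not corrected for length and are compared between populations, gene by gene.

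Collagens are secreted or membrane proteins built from 3 chains that wind into a triple helix. Fibrillar chains (types I, II, III, V, XI, XXIV and XXVII) form the fibers of connective tissue, and type IV chains form the sheet-like network of basement membranes. In the testis, a basement membrane that Sertoli cells and peritubular myoid cells lay down together surrounds each seminiferous tubule, and fibrillar collagen lies in the tubule wall and in the interstitium between tubules, where Leydig cells, fibroblasts and blood vessels are found.

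Promoter windows of 300 bases, from 250 bases before to 50 bases after a RefSeq start site (GRCm38.p6), were given for 35 of the 44 collagen genes, in 38 windows. Printed here are those of genes on which the results turn: Col1a2 and Col3a1, high in other somatic cells, Col4a1 and Col4a2, whose starts lie 21 bases apart on opposite strands, Col18a1, highest in Sertoli cells, and Col16a1, highest in round spermatids. Each runs 5′ to 3′ on the gene's own strand. Capitals mark CCAAT or its reverse complement ATTGG, the core that NF-Y recognizes, and GGGCGG or its reverse complement CCGCCC, the core of Sp factors. Col1a2 is at chr6:4505368-4505667 (plus strand), Col3a1 at chr1:45311288-45311587 (plus), Col4a1 at chr8:11312777-11313076 (minus), Col4a2 at chr8:11312555-11312854 (plus), Col18a1 at chr10:77166481-77166780 (minus) and Col16a1 at chr4:130047590-130047889 (plus).
Col1a2: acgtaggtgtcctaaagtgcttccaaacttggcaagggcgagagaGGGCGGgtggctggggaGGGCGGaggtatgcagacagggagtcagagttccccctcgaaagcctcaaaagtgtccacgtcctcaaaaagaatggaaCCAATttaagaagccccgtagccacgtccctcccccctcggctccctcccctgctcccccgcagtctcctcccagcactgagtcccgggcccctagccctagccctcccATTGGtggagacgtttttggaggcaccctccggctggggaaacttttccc
Col3a1: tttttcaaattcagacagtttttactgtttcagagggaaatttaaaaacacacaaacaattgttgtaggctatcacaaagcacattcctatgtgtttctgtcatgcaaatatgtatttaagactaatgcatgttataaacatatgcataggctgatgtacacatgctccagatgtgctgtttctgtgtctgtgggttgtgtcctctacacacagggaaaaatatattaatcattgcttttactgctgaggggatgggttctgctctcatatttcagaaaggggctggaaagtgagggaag
Col4a1: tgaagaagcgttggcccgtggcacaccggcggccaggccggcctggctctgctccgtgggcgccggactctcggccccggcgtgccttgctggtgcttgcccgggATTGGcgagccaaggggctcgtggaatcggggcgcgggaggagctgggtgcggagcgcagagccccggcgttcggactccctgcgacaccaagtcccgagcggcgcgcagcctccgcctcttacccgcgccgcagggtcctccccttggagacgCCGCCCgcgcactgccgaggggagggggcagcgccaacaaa
Col4a2: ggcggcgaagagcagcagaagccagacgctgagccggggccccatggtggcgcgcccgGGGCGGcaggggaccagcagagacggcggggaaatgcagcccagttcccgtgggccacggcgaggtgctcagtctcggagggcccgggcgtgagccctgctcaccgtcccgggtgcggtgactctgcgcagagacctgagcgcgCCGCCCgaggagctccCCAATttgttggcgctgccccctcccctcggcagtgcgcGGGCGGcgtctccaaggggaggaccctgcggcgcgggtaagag
Col18a1: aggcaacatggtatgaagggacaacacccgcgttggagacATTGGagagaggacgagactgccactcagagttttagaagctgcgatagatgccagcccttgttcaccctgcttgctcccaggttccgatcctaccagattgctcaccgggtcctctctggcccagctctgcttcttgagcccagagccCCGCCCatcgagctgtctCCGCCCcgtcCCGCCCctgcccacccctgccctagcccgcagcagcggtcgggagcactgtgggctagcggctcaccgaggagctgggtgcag
Col16a1: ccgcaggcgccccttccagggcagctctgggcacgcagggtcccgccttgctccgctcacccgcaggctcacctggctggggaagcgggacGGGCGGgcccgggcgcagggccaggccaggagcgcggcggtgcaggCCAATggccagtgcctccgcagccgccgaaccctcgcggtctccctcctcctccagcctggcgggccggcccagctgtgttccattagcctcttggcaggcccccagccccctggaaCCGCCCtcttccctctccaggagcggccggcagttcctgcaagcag

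CCAAT or ATTGG occurred in 13 of the 38 collagen windows (34.2%), against 37.4% of all 32851 windows of that length. GGGCGG or CCGCCC occurred in 23 of 38 (60.5%), against 35.7% of all windows. ATTGG followed by GGGCGG can share letters, and no 2 matches overlapped in the printed windows. Col1a2 held both motifs 2 times each, and Col3a1 held neither and had no CpG in its window. The Col4a1 and Col4a2 windows shared a stretch of sequence and were 74.0% and 73.7% G or C, with 37 and 33 CpGs. A second Col18a1 window, at a start further into the gene and not shown, held neither motif. A match of these letters is a description of the window and does not show that a factor binds there.

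Before the collagens were compared, each population was checked against marker genes. The 6 Sertoli markers summed to 44.1 UMIs per 10000 in Sertoli cells, to 15.0 in other somatic cells and to between 1.23 and 9.70 in germ populations. In other somatic cells the 6 Leydig markers summed to 219, the 5 peritubular myoid markers to 5.22 and the 4 stromal fibroblast markers to 5.03. The other somatic population is thus a mixture, with all 6 Leydig, 4 of 5 myoid and all 4 fibroblast markers at their highest there. Germ cell RNA was also seen outside the germline. The spermatocyte and spermatid markers summed to 2.82 and 2.15 in other somatic cells and to 3.19 and 2.82 in unknown cells. In Sertoli cells these sums were 0.359 and 0.00407. The general germ cell markers Ddx4 and Dazl were seen in all 3. They summed to 3.80 in Sertoli, 5.32 in other somatic and 3.80 in unknown cells, against 6.21 to 20.2 in germ populations. The part of germ cell RNA in the collagen values of these populations was not tested. All 5 endothelial markers were highest in the unknown cells, with a sum of 28.3 against at most 1.90 in any germ population, although these cells keep the authors' name here. The pericyte markers Rgs5 and Notch3 were also highest there, at 1.65 and 0.587, while the third, Mcam, was highest in SpG of the library labelled Nfya-CKO at 2.58. Of the 5 macrophage markers, 4 were highest in other somatic cells, with a sum of 0.805, and Adgre1 in unknown cells, against sums of 0.110 to 0.428 in germ populations.

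Depth and library differed between the populations. Sertoli cells numbered 3265, of which 2866 came from the 11 dpp library, while 4633 of the 5883 other somatic cells came from the library labelled Nfya-CKO, and the deposited column that holds them is named for CKO. Cell type, age and library therefore cannot be told apart between these somatic populations. Nor can cell type, age, genotype and library be told apart between somatic and germ populations. In RNA, the library labelled Nfya-CKO gave at most 0.0965% of the cells of any control germ population. The unknown population rests on 99 cells in RNA and 54 in scATAC-seq, and ES on 1195 in RNA and 124 in scATAC-seq. The assays also differed in the mix behind a mean. Other somatic cells numbered 5883 in RNA and 1942 in scATAC-seq, of which the library labelled Nfya-CKO gave 78.8% and 62.7% and that of 25 dpp 8.72% and 19.2%, so RNA and accessibility set side by side are not means of the same cells. A single UMI in a cell of median depth adds between 0.000281 (Sertoli) and 0.0213 (unknown) to a population's mean, which is the counting step behind each value. Of the 39674 different cell numbers in the scRNA-seq cell table, 5030 occurred in more than 1 library.

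As a sum over all 44 genes, collagen RNA was highest outside the germline. The sum was 39.5 UMIs per 10000 in other somatic cells, 36.9 in unknown cells and 12.9 in Sertoli cells. Germ populations ranged from 4.34 in pL to 15.9 in RS, so Sertoli cells lay inside the germ range. The genes behind the sum differed. Col18a1 gave 60.1% of all collagen UMIs in Sertoli cells, Col1a2 22.7% in other somatic cells, Col4a1 36.3% in unknown cells and Col22a1 26.8% in RS. In undifferentiated SpG, Col1a1 gave 33.4%.

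The main comparison set the mean of Sertoli and other somatic cells against the mean of the 10 germ populations, SpG of the library labelled Nfya-CKO included. Called higher in somatic cells were the genes of types I and III, 4 of the 6 type IV genes, Col6a1 and Col6a2 of type VI, and the genes of types XV and XVIII, and 4 fibril-associated or transmembrane collagens were called higher in germ cells. In all, 33 of the 44 genes passed the filter of a mean of 0.05 UMIs per 10000 over the 13 populations. Of these, 11 were at least 2-fold higher in somatic cells, where 10.5% of all 15250 genes were, and 4 were at least 2-fold lower, where 15.5% of all genes were. Ratios were taken after adding 0.1 to each mean, which lowers the fold change of weakly detected genes. The median log2 ratio was 0.03 over the 33 genes and -0.28 over all genes. With a filter at a mean of 0.2 in place of 0.05, 14 collagen genes were left and it was 1.99, against -0.28 over all genes. With that filter set on the 12 populations without other somatic cells, 12 were left and it was 1.99, against -0.31. Both somatic populations lay above all 10 germ populations for 5 collagen genes (8.47% of all genes) and below all 10 for 1 (5.52% of all genes).

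These counts rested on the mixed population. With other somatic cells alone as the somatic group, 14 collagen genes were higher, against 9.52% of all genes, and 2 lower, against 9.17%. With the 0.05 filter set on the other 12 populations, chosen after the values were seen, 13 of 32 were higher, against 9.05%, and 2 lower, against 9.21%. With Sertoli cells alone, 4 of 33 (12.1%) were higher, against 10.7% of all genes, and 7 (21.2%) lower, against 24.2%, which is near the share of all genes. Of the 21 collagen genes that reach 0.5 UMIs per 10000 in a population, Col1a1, Col4a5, Col5a2, Col6a2 and Col15a1 changed sign with Sertoli cells alone. The heat map of the 44 genes shows this split.

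**Figure D1:**
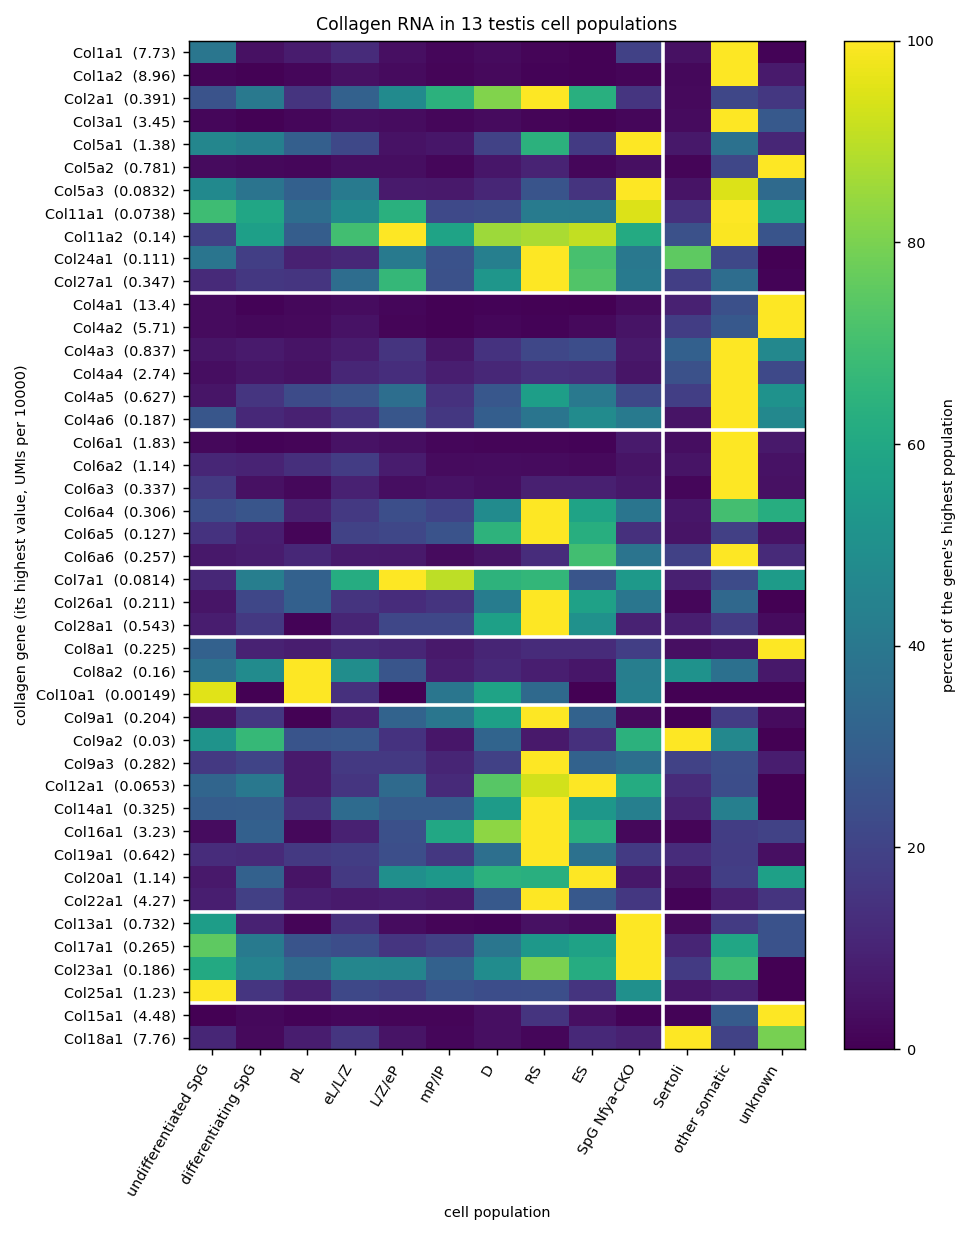
RNA of the 44 collagen genes (rows, grouped by structural class, with each gene's highest value in UMIs per 10000) in 13 populations (columns), colored by the percent of the gene's own highest population. Genes of types I, III and IV and Col6a1, Col6a2, Col6a3 and Col6a6 peak right of the white vertical line, outside the germline, while 13 genes, among them Col6a4 and Col6a5, peak in RS.

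By the population in which they were highest, the genes split between soma and germline. Of the 44 genes, 25 were highest in a germ population, 12 in other somatic cells, 5 in unknown cells and 2 in Sertoli cells. Among the 33 that passed the filter, 18 (54.5%) were highest in a germ population, against 72.3% of all genes, and 10 (30.3%) in other somatic cells, against 6.77%. RS, 1 of the germ populations, held 10 of the 18 (30.3% of the 33, against 15.7% of all genes), and 4 (12.1%) were highest in unknown cells, against 10.3%. Of the 33, 5 passed the filter only through their highest population: Col4a6 and Col6a6 through other somatic cells, Col26a1 through RS, Col5a2 through unknown cells and Col8a2 through pL. With the filter set on the other 12 populations, chosen after the values were seen, 28 collagen genes were left, with 8 highest in other somatic cells (28.6%, against 6.63% of all genes), 9 in RS (32.1%, against 14.6%) and 3 in unknown cells (10.7%, against 9.30%).

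Among the fibrillar collagens, 3 of 8 genes that passed the filter were called higher in somatic cells, against 10.5% of all genes, and 0 lower, against 15.5%. Col1a1 and Col1a2 encode both chains of type I collagen, the main fiber protein of connective tissue. Col1a2 was 8.96 UMIs per 10000 in other somatic cells, 0.183 in Sertoli cells and 0.661 in unknown cells. In germ cells it ranged from 0.0502 in ES over a median of 0.111 to 0.399 in eL/L/Z. Other somatic and unknown cells thus lay above every germ population, Sertoli cells lay inside the germ range, and the log2 ratio of somatic to germ was 4.18.

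Col1a1 had a different pattern in the germline. It was 7.73 in other somatic cells, 0.354 in Sertoli cells and 0.0648 in unknown cells. Among germ populations it was 3.03 in undifferentiated SpG and 1.51 in SpG of the library labelled Nfya-CKO, then 0.354 in differentiating SpG, 0.583 in pL, 0.962 in eL/L/Z and 0.0482 in ES. Its log2 ratio of somatic to germ was 2.33. Col1a2 was 0.111 and 0.112 in the same SpG populations, so the chains of type I collagen did not follow each other in spermatogonia.

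Col3a1, the single chain of type III collagen, which forms fibers together with type I, followed Col1a2. Its value was 3.45 in other somatic cells, 0.968 in unknown cells and 0.0980 in Sertoli cells, against 0.0171 to 0.134 in germ populations, with a log2 ratio of 3.48. Type V collagen regulates the diameter of type I fibers, and its chains diverged. Col5a1 was highest in SpG of the library labelled Nfya-CKO at 1.38, with 0.884 in RS, 0.634 in undifferentiated SpG, 0.515 in other somatic cells and 0.0894 in Sertoli cells. Col5a2 was highest in unknown cells at 0.781, with 0.165 in other somatic cells, 0.0102 in Sertoli cells and at most 0.0787 in a germ population.

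The other fibrillar genes stayed below 0.5 in every population. Col2a1 and Col27a1 were highest in RS, at 0.391 and 0.347, Col24a1 in RS at 0.111, Col11a2 in L/Z/eP at 0.140, Col5a3 in SpG of the library labelled Nfya-CKO at 0.0832, and Col11a1 in other somatic cells at 0.0738.

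All 6 chains of type IV collagen passed the filter, and 4 were called higher in somatic cells, against 10.5% of all genes. Col4a1 and Col4a2 encode the chains of the common basement membrane network, found under nearly all epithelia and around vessels. Col4a1 was 13.4 in unknown cells, 3.25 in other somatic cells and 1.22 in Sertoli cells, and between 0.0432 and 0.430 in germ populations. For Col4a2 these values were 5.71, 1.56 and 1.03, and 0.0284 to 0.293. No germ population reached any of the 3 populations outside the germline, and the log2 ratios of Sertoli and other somatic cells to germ cells were 2.89 and 2.53.

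The Col4a3 and Col4a4 chains build, with Col4a5, a network found in specialized basement membranes such as that of the kidney glomerulus. Col4a4 was 2.74 in other somatic cells, 0.682 in Sertoli cells and 0.605 in unknown cells, against 0.0999 to 0.388 in germ populations. Col4a3 was 0.837, 0.258 and 0.390 in the same order, against 0.0436 to 0.197. Both lay above every germ population in each of the 3, with log2 ratios of 2.39 and 1.74.

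Col4a5 and Col4a6 lie head to head on the X chromosome. Col4a5 was 0.627 in other somatic cells but 0.117 in Sertoli cells, within the germ range of 0.0359 to 0.352, and its log2 ratio of 0.83 was not called. Col4a6 reached 0.187 in other somatic cells, 0.0869 in unknown cells and 0.0900 in ES.

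The type IV genes sit in 3 head-to-head pairs, and the pairs bore on how far accessibility could be read gene by gene. In scATAC-seq, Col4a1 and Col4a2 differed by at most 0.262% in any population. Their start sites in the printed windows lie 21 bases apart and the annotated genes overlap by 85 bases. Col4a3 and Col4a4, whose spans overlap by 114 bases, differed by at most 25.4% (in ES) and by 0.0865% at the median population. Col4a5 and Col4a6, with starts 1343 bases apart, differed by at most 10.8%. Partners are therefore not independent accessibility measurements. Over the 13 populations, Spearman's rho between the partners' RNA was 0.88, 0.97 and 0.70.

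**Figure D2:**
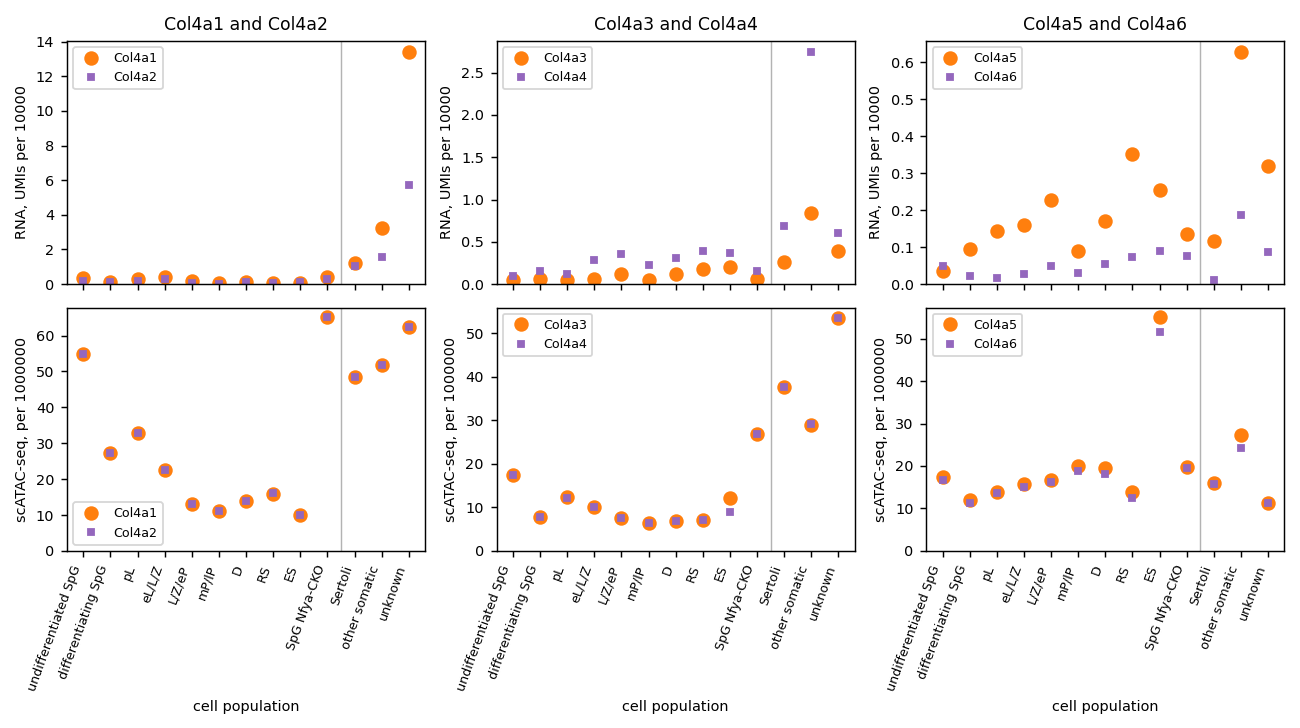
Type IV collagen pairs in 13 populations, with RNA in UMIs per 10000 (top) and scATAC-seq per 1000000 over nuclear genes (bottom), each point being 1 population mean. Accessibility of Col4a1 and Col4a2 coincides, at 62.5 for both in unknown cells, where their RNA was 13.4 and 5.71, and the partners of the other pairs lie up to 25.4% (Col4a3 and Col4a4, in ES) and 10.8% apart.

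Type VI collagen forms beaded filaments next to cells and is built from Col6a1, Col6a2 and 1 of several longer chains. Col6a1 was 1.83 in other somatic cells, 0.0673 in Sertoli cells, 0.126 in unknown cells and 0.0148 to 0.130 in germ populations, and its log2 ratio was 2.84. Col6a2 was 1.14, 0.0617, 0.0534 and 0.0310 to 0.201 in the same order, with a log2 ratio of 1.90. Both were set apart in other somatic cells only. Of the long chains, Col6a3 (0.337) and Col6a6 (0.257) were highest in other somatic cells and Col6a4 (0.306) and Col6a5 (0.127) in RS.

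Types XV and XVIII, the multiplexins, sit in basement membrane zones, and their ends can be cut off as fragments such as endostatin. Both passed the filter and both were called higher in somatic cells, against 10.5% of all genes. Col18a1 was 7.76 in Sertoli cells, 6.16 in unknown cells and 1.52 in other somatic cells. It ranged in germ cells from 0.147 in RS over a median of 0.516 to 1.19 in eL/L/Z, with 0.833 in undifferentiated SpG and 0.900 in ES, and the log2 ratio was 2.88. The 6 Sertoli markers summed to 6.61 in eL/L/Z and 9.70 in ES, against 1.23 to 3.66 in the other germ populations, and their part in the Col18a1 values was not tested. Of the 33 collagen genes that passed the filter, Col18a1 alone was at least 2-fold higher in Sertoli than in other somatic cells. Col15a1 was 4.48 in unknown cells, 1.29 in other somatic cells and 0.0428 in Sertoli cells, with 0.676 in RS and 0.0166 in undifferentiated SpG, and its log2 ratio of 1.66 came from other somatic cells.

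**Figure D3:**
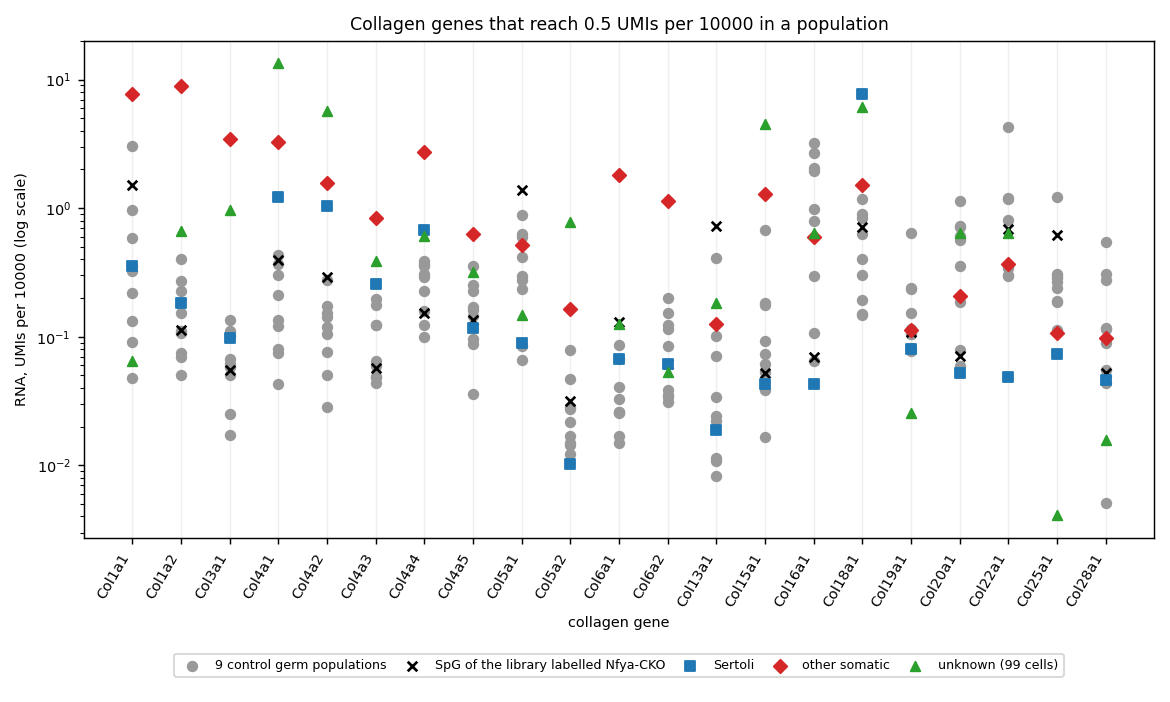
RNA, in UMIs per 10000 on a log axis, of the 21 collagen genes that reach 0.5 in a population. Each symbol is 1 population mean: 9 control germ populations (grey), SpG of the library labelled Nfya-CKO (crosses), Sertoli, other somatic and unknown cells (colors). Col18a1 is led by Sertoli cells at 7.76, Col1a2 by other somatic cells at 8.96, and Col22a1 by a germ population, RS, at 4.27.

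Fibril-associated collagens (FACITs) bind to the surface of collagen fibers. Of 9, 6 passed the filter. Of these, 0 were called higher in somatic cells, against 10.5% of all genes, and 3 lower, against 15.5%. With other somatic cells alone as the somatic group, Col16a1 (log2 ratio -0.93) and Col20a1 (-0.83) lost the call. With unknown cells counted as somatic, Col20a1 (-0.45) lost it. Col16a1, which connects fibers and cells, was 0.107 in undifferentiated SpG, 0.990 in differentiating SpG, 0.0643 in pL, 0.296 in eL/L/Z, 0.793 in L/Z/eP, 1.94 in mP/lP, 2.68 in D, 3.23 in RS and 2.05 in ES. It was 0.0431 in Sertoli cells, 0.592 in other somatic cells and 0.640 in unknown cells. Values were thus low before meiosis, except in differentiating SpG, and high from mP/lP on, and the log2 ratio of somatic to germ was -1.66. Libraries differed along these stages. Of pL cells 59.3% came from 11 dpp, of L/Z/eP 93.5% from 25 dpp, and of RS 77.0% and ES 99.6% from Cre/+. Stage and age therefore cannot be fully told apart in the germline.

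Col22a1, known from tissue junctions such as that of muscle and tendon, was 4.27 in RS and 1.19 and 1.18 in D and ES, against 0.297 to 0.814 in the other germ populations. It was 0.0486 in Sertoli cells, 0.371 in other somatic cells and 0.644 in unknown cells, and its log2 ratio was -1.80. Col20a1, another fibril-associated chain, went from 0.0593 in pL over 0.606 in mP/lP to 1.14 in ES, with 0.0523 in Sertoli, 0.209 in other somatic and 0.646 in unknown cells and a log2 ratio of -1.26. In the differentiating SpG, of which 783 of 927 cells came from the Cre/+ library, Col16a1, Col20a1 and Col22a1 were all above their values in undifferentiated SpG and pL, and the spermatid markers Acrv1 and Prm1 summed to 5.12, against 0.312 and 0.0139. The part of RNA from later cells in these values was not tested.

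Col19a1 was 0.642 in RS and at most 0.238 elsewhere. Of the other FACITs, Col9a1 (0.204), Col9a3 (0.282) and Col14a1 (0.325) were highest in RS, Col12a1 (0.0653) in ES and Col9a2 (0.0300) in Sertoli cells. Col9a3 overlaps Tcfl5 in the annotation, and reads of overlapping genes may not be separable. Such overlaps with an annotated gene concern 23 of the 44 collagen genes.

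Transmembrane collagens carry a single membrane-spanning segment, and their ectodomains can be shed. Col25a1, known from neurons and from the forming neuromuscular junction, was, of the 33 genes that passed the filter, the 1 for which both somatic populations lay below all germ populations. It was 1.23 in undifferentiated SpG and 0.614 in SpG of the library labelled Nfya-CKO, 0.112 to 0.308 in the other germ populations, 0.0740 in Sertoli cells and 0.107 in other somatic cells, with a log2 ratio of -1.31. In unknown cells it was 0.00408, below the value of 1 UMI in a cell of median depth. Col13a1, found at cell-matrix contacts, was likewise highest in spermatogonia, with 0.732 in SpG of the library labelled Nfya-CKO, 0.409 in undifferentiated SpG, 0.126 in other somatic cells, 0.184 in unknown cells and at most 0.102 in the other germ populations. Col17a1 (0.265) and Col23a1 (0.186) were also highest in SpG of the library labelled Nfya-CKO.

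Among the remaining genes, Col28a1, a collagen related to type VI, was 0.543 in RS and 0.0970 in other somatic cells. Col26a1 was 0.211 in RS and Col7a1, the anchoring fibril chain, 0.0814 in L/Z/eP. The short-chain collagen Col8a1 was highest in unknown cells at 0.225, Col8a2 in pL at 0.160 and Col10a1 in pL at 0.00149. Col10a1 was listed at 0 in 6 populations, and in Sertoli cells a count of 0 allows a value of up to 0.000843, the value of 3 UMIs.

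The somatic populations also differed from each other. In RNA, 19 of 33 collagen genes were at least 2-fold higher in other somatic than in Sertoli cells, against 15.4% of all genes, and 1, Col18a1, was lower, against 5.98%. Col4a6 and Col6a6, among the 19, passed the filter only through other somatic cells, and with the filter set on the other 12 populations 17 of 32 were higher, against 14.9%. The largest differences were those of Col1a2, Col3a1, Col1a1, Col6a1, Col15a1 and Col6a2, with log2 ratios of 4.998, 4.16, 4.11, 3.53, 3.28 and 2.94. Col18a1 had a log2 ratio of -2.28. In scATAC-seq, 20 of 44 were at least 1.5-fold higher in other somatic cells, against 18.9% of all genes, and 4 were lower, against 6.47%.

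Accessibility of several of these genes went the same way. Per 1000000, Col1a2 was 44.0 in other somatic and 9.73 in Sertoli cells, Col6a1 36.8 and 6.13, Col5a2 29.8 and 5.47, and Col3a1 20.5 and 3.92. Col18a1 was lower in other somatic cells in this assay as well, at 26.3 against 50.1. Scaling over all genes, mitochondrial fragments included, gave 13 higher, against 6.19% of all genes, and 8 lower, against 23.4%, where 64.5% of the signal was mitochondrial in other somatic and 51.0% in Sertoli cells.

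Unknown cells had 9 of 33 collagen genes at least 2-fold above the germ mean, against 11.0% of all genes. A further 8 were at least 2-fold below it, against 18.9% of all genes. The median log2 ratio was -0.29, and -0.35 over all genes. In scATAC-seq, 14 of 44 were at least 1.5-fold higher, against 19.2%, and 19 lower, against 44.6%. In that assay 10 of the 44 were at 0 in the 54 unknown cells, which adds to the lower count. No floor was set for accessibility. In RNA, Col4a1 led with a log2 ratio of 5.41, followed by Col4a2 (4.58), Col15a1 (4.24), Col18a1 (3.28), Col5a2 (2.77), Col3a1 (2.67), Col1a2 (1.57), Col4a3 (1.34) and Col4a4 (1.02). Col5a2 passed the filter only through its value in these cells, and with the filter set on the other 12 populations 8 of 33 genes were higher, against 9.60% of all genes. Lower than the germ mean were Col1a1 (log2 ratio -2.32), Col25a1 (-2.18), Col27a1 (-1.29), Col5a1 (-1.25), Col14a1 (-1.23), Col19a1 (-1.19), Col28a1 (-1.17) and Col23a1 (-1.02). Of these, Col5a1 and Col1a1 alone were above the floor of 3 UMIs in unknown cells, which is 0.0640. These are values of 99 cells from all 5 libraries, with the 5 endothelial markers and 2 of 3 pericyte markers at their highest and the Leydig gene Insl3 at 20.5. The part of endothelial cells and pericytes in the values of Col4a1, Col4a2 and Col15a1 was not tested.

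In scATAC-seq, 16 of the 44 collagen genes were at least 1.5-fold more accessible in somatic than in germ populations, against 11.6% of all 29475 genes, and 3 were less accessible, against 30.5%. With each type IV pair counted once, 14 of 41 were more and 3 less accessible. The median log2 ratio was 0.26, and -0.20 over all genes. The split depended on the scale. Scaled over all genes, mitochondrial included, 5 were higher, against 5.80% of all genes, and 9 lower, against 41.0%, and as deposited 5, against 5.82%, and 11, against 46.3%. These scales moved the median of all genes to -0.48 and -0.53, and relative to that median the collagen genes lay 0.46 higher on the nuclear scale, 0.34 on the scale of all genes and 0.39 as deposited.

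Col3a1 stood out with 20.5 in other somatic cells, 3.92 in Sertoli cells and 0.741 to 4.49 in germ populations, a log2 ratio of 2.14. Its value in unknown cells was 0, in 54 cells. Col6a4 followed at 1.57, with 21.1 in other somatic cells, 2.39 in Sertoli cells and 1.52 to 5.52 in germ populations. Col4a4 and Col4a3, partners of a pair, were at 1.499 and 1.46, with 37.8 in Sertoli cells, 29.1 and 28.9 in other somatic cells and 53.6 in unknown cells against at most 26.8 in germ cells. Col18a1 was highest in Sertoli cells at 50.1, as in RNA, with 26.3 in other somatic cells, 37.4 in undifferentiated SpG and 5.504 in ES. Less accessible in somatic cells were Col25a1, Col19a1 and Col9a1, at log2 ratios of -0.69, -0.66 and -0.98.

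RNA and accessibility did not always move together. Of the 33 genes measured in both, 20 (60.6%) had ratios of somatic to germ on the same side of 1, against 71.0% of all 15210 genes. Higher in both were 15 genes and lower in both 5, while 11 had lower RNA and higher accessibility in somatic cells and 2 the reverse. Col16a1 was the clearest case. Its accessibility was highest in other somatic cells (48.8) and 11.6 in RS, where its RNA was highest, and over the 13 populations Spearman's rho was -0.74. Col20a1 and Col5a1 also had lower RNA and higher accessibility in somatic cells.

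In other genes the assays followed each other across populations. Spearman's rho over the 13 populations was 0.91 for Col1a1, whose accessibility was 68.4 in other somatic cells, 59.1 in pL, 52.6 in undifferentiated SpG, 40.2 in Sertoli cells and 11.3 in ES. It was 0.87 for Col25a1, 0.83 for Col8a2 and near 0.8 for Col4a1 and Col4a2 (0.78 and 0.79). The median rho was 0.25 over the 33 collagen genes and 0.34 over all genes, and with scATAC-seq scaled over all genes it was 0.093 over the collagen genes. These are descriptions over 13 means that share libraries and, within an assay, a total.

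**Figure D4:**
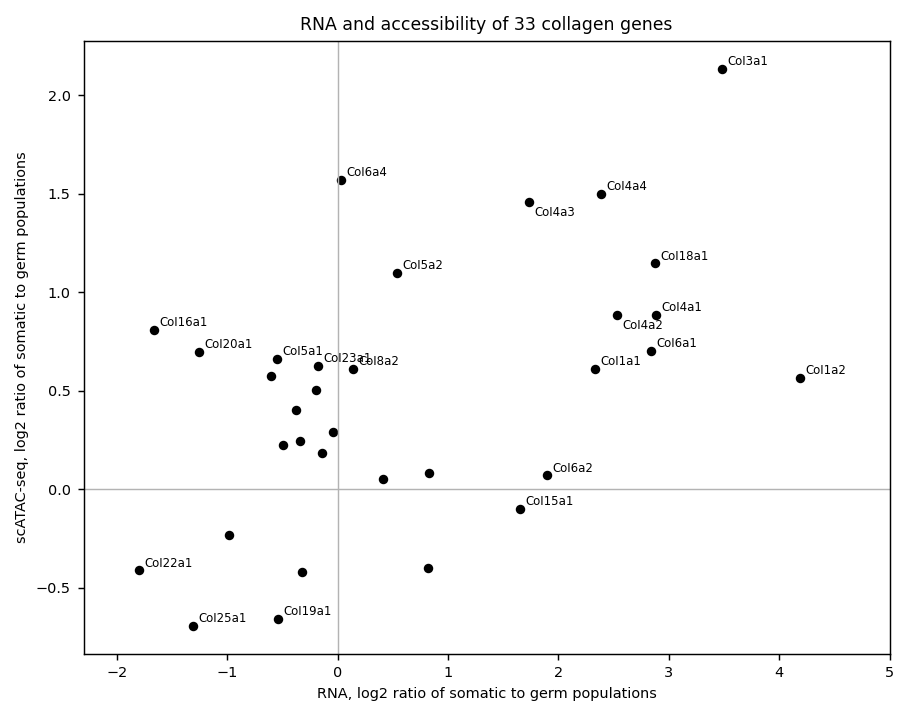
Log2 ratios of the mean of Sertoli and other somatic cells to the mean of 10 germ populations, for RNA (horizontal, 0.1 added) and scATAC-seq (vertical, 1 added), 1 point for each of the 33 collagen genes measured in both. Col3a1 is high in both (3.48 and 2.14) and Col16a1 is on opposite sides (-1.66 and 0.81).

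RS were also compared with undifferentiated SpG, a comparison chosen after the values were seen. In RNA, 14 of 33 collagen genes were at least 2-fold higher in RS, against 22.4% of all genes, and 5 were lower, against 26.7%. The excess depended on the value added, since with 0.5 in place of 0.1 the count was 4 of 33, against 11.9% of all genes. Col26a1 passed the filter only through RS, and with the filter set on the other 12 populations 13 of 32 were higher, against 20.8%. The largest ratios were those of Col16a1 (log2 ratio 4.01), Col22a1 (3.24), Col15a1 (2.73), Col20a1 (2.19), Col28a1 (2.16) and Col19a1 (2.03). Lower in RS were Col1a1 (-4.03), Col13a1 (-1.92), Col18a1 (-1.92), Col25a1 (-1.74) and Col4a1 (-1.43). In scATAC-seq, 27 of 44 were at least 1.5-fold less accessible in RS, against 20.8% of all genes, and 6 more accessible, against 33.1%.

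The median collagen gene fell by 0.92 in accessibility on the log2 scale, where the median over all genes was 0.20. Scaling over all genes gave the same count of 27 lower, against 21.5% of all genes. Of the 14 genes with more RNA in RS, 9 (64.3%) were less accessible there, against 11.4% of all 3406 genes with more RNA in RS, 2 were more accessible, against 53.7%, and 3 neither. The share less accessible was near that of all 44 collagen genes (61.4%). Col19a1 went from 26.8 to 4.34 in accessibility while its RNA went from 0.0821 to 0.642. Col27a1 went from 41.0 to 12.2 and Col2a1 from 44.5 to 14.0, with RNA from 0.0419 to 0.347 and from 0.101 to 0.391. Accessibility and RNA fell together for Col1a1, Col13a1, Col18a1 and Col4a1. RS cells were shallower in RNA, at a median of 2132 UMIs against 9290, and 5639 of 7325 came from the Cre/+ library, whereas 646 of 1292 undifferentiated SpG came from 11 dpp.

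**Figure D5:**
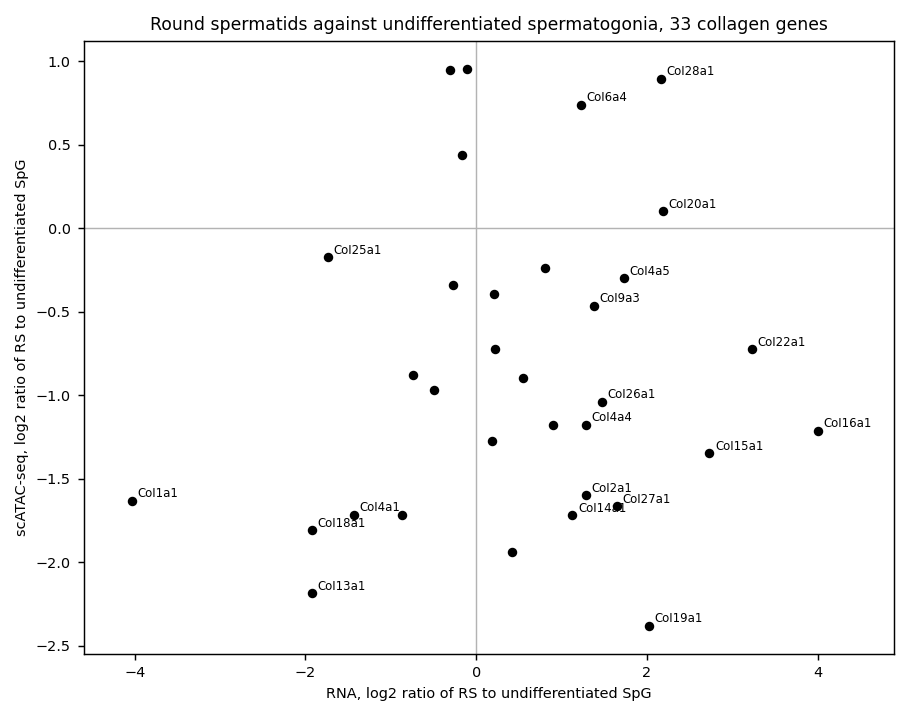
Log2 ratios of round spermatids (RS) to control undifferentiated SpG for RNA (horizontal, 0.1 added) and scATAC-seq (vertical, 1 added) of the 33 collagen genes that passed the RNA filter. Points at lower right, among them Col16a1 (4.01 and -1.21) and Col19a1 (2.03 and -2.38), had more RNA and less accessibility in RS.

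SpG of the library labelled Nfya-CKO were compared with control undifferentiated SpG. Nfya RNA itself was not lower in them, at 1.11 UMIs per 10000 against 0.456, so every direction here rests on the label. Reads outside the deleted exons are still counted, so this value does not check the deletion. The same library gave 0 cells to mP/lP, RS and ES. Of 33 collagen genes, 1 was at least 2-fold higher in RNA, against 4.09% of all genes, and 0 were lower, against 3.08%. The gene was Col5a1, with 1.38 against 0.634 and a log2 ratio of 1.01. Col1a1, with 1.51 against 3.03, and Col25a1, with 0.614 against 1.23, were close to 2-fold lower as measured and at -0.96 and -0.89 with 0.1 added, which is not called. With 0.5 added in place of 0.1 no gene was called, against 0.774% of all genes higher and 0.623% lower. With 0.01 added 8 were higher, against 10.2% of all genes, and 1, Col1a1, was lower, against 9.60%, so the higher count lay below the share of all genes with 0.1 added and above it with 0.01.

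In scATAC-seq, 9 of 44 were at least 1.5-fold higher in these SpG, against 16.5% of all genes, and 2 were lower, against 4.25%. Col8a1 (40.2 against 20.2) and Col25a1 (14.2 against 7.85) had log2 ratios of 0.96 and 0.78, and Col17a1 (1.01 against 2.59) and Col6a4 (1.52 against 2.91) of -0.84 and -0.63. With 1 added to each value, no collagen gene was 2-fold apart in accessibility. The control SpG came from mice of 4 ages, with 102 of 1292 cells from the Cre/+ library and 1 cell of the Nfya-CKO library, and the 491 SpG labelled Nfya-CKO all from 8-week-old mice, so age and genotype cannot be told apart.

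RNA of Leydig genes was seen in the SpG labelled Nfya-CKO, at 39.8 UMIs per 10000 for Insl3 against 0.0640 in control SpG and 177 in other somatic cells. Their 6 Leydig markers were between 16.3% and 24.6% of the values in other somatic cells. Col1a1 was at 19.5%, Col4a5 at 21.6%, Col4a2 at 18.8% and Col4a1 at 12.1%, while Col1a2 and Col3a1 were at 1.25% and 1.61%. In UMIs per 10000, Col1a1 was 1.51 in these SpG and 3.03 in control SpG, and Col4a1 0.394 and 0.369. Col4a5 was 0.136 and 0.0359, Col4a2 0.293 and 0.173, Col1a2 0.112 and 0.111, and Col3a1 0.0554 and 0.0619. Among the collagen genes that reach 0.5 in a population, the percentages ran from 1.25% (Col1a2) to 580% (Col13a1). Col5a1 (267%), Col13a1, Col22a1 (185%) and Col25a1 (572%) were higher in these SpG than in other somatic cells. The part of RNA from other cells in these SpG was not tested.

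Genes that make, modify, bind and break down collagen were set beside the collagens. Of 64 listed genes, 47 passed the RNA filter. Of these, 24 were at least 2-fold higher in somatic than in germ populations, against 10.5% of all genes, and 0 were lower, against 15.5%. Among the 24, Ddr2 and Timp1 (0.393 and 0.523 in other somatic cells) passed the filter only through that population. The count was not redone with the filter set on the other 12 populations. In scATAC-seq, 28 of 63 were at least 1.5-fold higher, against 11.6%, and 1 lower, against 30.5%. By role, 7 of 14 genes of chain modification and folding were higher in RNA, 2 of 8 of propeptide removal and cross-linking, 2 of 6 receptors, 4 of 5 of breakdown and its inhibitors, 7 of 12 basement membrane partners and 2 of 2 small proteoglycans. Ddr2 is 1 of these 2 receptors, and Timp1 is 1 of these 4 genes of breakdown and its inhibitors.

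Serpinh1, the chaperone of procollagen, was 0.814 in Sertoli and 0.734 in other somatic cells and at most 0.308 in a germ population (log2 ratio 2.26). The lysyl hydroxylase Plod2 had 4.09 and 1.57 (1.82), and P3h4, which acts with lysyl hydroxylases, 0.715 and 0.403 (1.63). The propeptidase Adamts2 was 0.423 in Sertoli and 0.673 in other somatic cells (1.89), while Pcolce, which speeds propeptide cleavage, was 2.998 in other somatic cells and 0.214 in Sertoli cells, with 2.45 in RS (1.28). Bmp1, the procollagen C-proteinase, had a log2 ratio of 0.99 and was not called. Sertoli cells thus held RNA of several processing genes above every germ population while Col1a2 and Col3a1 lay in the germ range there.

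Among the receptors, the collagen-binding kinase Ddr1 was 3.84 in Sertoli and 1.44 in other somatic cells (2.45). Ddr2, which passed the filter only through other somatic cells, was 0.393 there and 0.00949 in Sertoli cells (1.26). The integrin chain Itgb1 had a log2 ratio of 0.998 and was just below the call. Mmp14, a membrane-bound collagenase, was 5.57 in Sertoli cells and 1.45 in other somatic cells (2.99), and the inhibitors Timp3 and Timp2 had log2 ratios of 2.93 and 1.98. Timp2 was 8.04 in other somatic cells but 4.62 in Sertoli cells, below its value of 6.99 in ES. Of the basement membrane partners, Sparc, a collagen-binding matricellular protein, was 58.1 in Sertoli, 42.2 in other somatic and 85.2 in unknown cells, against at most 19.6 in germ cells (3.05). Nid1 and Lamb2, which join and build the laminin network, had log2 ratios of 2.35 and 2.22. The proteoglycans Dcn and Bgn, which bind collagen fibers, were 2.45 and 1.07 in other somatic cells and 0.0294 and 0.0254 in Sertoli cells, in the same order as Col1a1, Col1a2 and Col3a1.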

How the data were processed

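Nuclei were profiled for RNA and accessible chromatin with BD Rhapsody, in 5 libraries per assay. Per the labels and the study's methods, the authors aligned RNA reads with STAR 2.7.10b and chromatin reads with BWA 0.7.12 to mm10 (GRCm38), used bedtools 2.27.1, Seurat 5.2.1 and ArchR 1.0.3, filtered cells, removed doublets and named the populations. The deposited matrices hold the natural log of 1 plus the mean of each population, and exp(value) - 1 was used here. The authors' cell tables gave the UMI count and fragment count per cell and the percent of mitochondrial reads, and 22 further columns were not used. The study's methods define promoter accessibility in pseudo-bulk tracks by the mean coverage close to the start site, and whether the scATAC-seq matrix counts that region is not given in the sources used here.

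Collagen genes and the lists of markers and pathway genes were chosen with earlier results of these data known. scATAC-seq values were rescaled to 1000000 over nuclear genes, leaving out 13 mitochondrial genes. RNA was compared where the mean over the 13 populations reached 0.05, after adding 0.1, with calls at 2-fold. scATAC-seq was compared where that mean reached 1, after adding 1, with calls at 1.5-fold. Genes named with values are chiefly the 21 collagen genes that reach 0.5 UMIs per 10000 in a population, and for each pathway list the 3 with the largest ratios, and others were named after their values were seen. Each population is 1 pooled value, so no test was run. Libraries held 30227701 to 64967271 UMIs and 177596122 to 872964488 fragments, and the floor for a count of 0 is 3 UMIs. Other pseudocounts, filters, scales, calls and group memberships were tried. Calculations used Python 3.11.15 with numpy 2.4.6, pandas 2.3.3 and scipy 1.17.1, matplotlib 3.10.9 drew the plots, and scripts were tested on simulated data.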

Additional observations from a re-analysis of the deposited data

How the results depend on the processing

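No paired analysis was possible because each condition is 1 library and the deposited values are pooled over libraries, and leaving out a library was not possible for the same reason. ES rest on 124 scATAC-seq cells and unknown cells on 54, which limits their values.

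In RNA of somatic against germ cells, where 11 collagen genes were higher and 4 lower, Sertoli cells alone gave 4 higher (10.7% of all genes), 7 lower (24.2%) and a median log2 ratio of -0.62, with Col1a1 at -0.86, Col6a2 at -0.21 and Col15a1 at -0.77, and Col4a5 (-0.30) and Col5a2 (-0.23), not called before, also negative. Other somatic cells alone gave 2 lower (9.17% of all genes), adding 0.5 gave 2 lower (3.44%), a call at 4-fold 0 lower (1.01%), and a filter on a mean of 0.2, which left 14 genes, a median of 1.99 (all genes -0.28). With the 0.05 filter set on the 12 populations without other somatic cells, chosen after seeing the data, 11 of 32 were higher (10.2%) and 4 lower (15.5%). Of 189 log2 ratios of the 21 named genes under alternatives, 182 kept their sign and 162 both sign and call in RNA, and 167 and 123 in scATAC-seq.

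In scATAC-seq of somatic against germ cells, where 16 were higher and 3 lower, scaling over all genes gave 5 higher (5.80% of all genes), 9 lower (41.0%) and a median of -0.13, and the deposited scale 5 (5.82%), 11 (46.3%) and -0.14. Sertoli cells alone gave 7 (11.0%), 10 (37.6%) and -0.28, where the median of all genes was -0.29, with Col5a1 at -0.41, Col5a2 at -0.43, Col6a1 at -0.96 and Col16a1 at -0.038. Col1a2 (-0.81), Col4a5, Col6a2 and Col13a1, not called before, also turned negative there. Adding 5 gave 1 lower (14.3% of all genes), 9 control germ populations 1 lower (28.9%), unknown cells counted as somatic 5 lower (30.4%), and a call at 2-fold 6 higher (5.15%) and 0 lower (14.8%). Leaving ES out of the germ group, chosen after seeing the data, gave 11 higher (11.0%) and 4 lower (15.2%) in RNA and 12 (11.5%) and 3 (29.2%) in scATAC-seq.

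For other somatic against Sertoli cells, where 19 were higher in RNA (15.4% of all genes), adding 0.5 gave 9 (3.58%) and a call at 4-fold 7 (3.77%). In scATAC-seq, scaling over all genes gave 13 higher (6.19%) and 8 lower (23.4%), and a call at 2-fold 13 (8.04%) and 1 (1.98%). For SpG labelled Nfya-CKO, where 1 was higher in RNA (4.09%), adding 0.01 gave 8 higher (10.2%) and 1 lower (9.60%), and adding 0.5 (0.774%) or a call at 4-fold (0.564%) 0 higher. In scATAC-seq, where 9 were higher (16.5%) and 2 lower (4.25%), scaling over all genes gave 3 higher (8.95%), adding 5 gave 2 higher (6.08%) and 0 lower (1.21%), and a call at 2-fold 0 (4.47%) and 0 (0.777%). For RS against undifferentiated SpG, all alternatives were chosen after seeing the data. In RNA, adding 0.01 gave 8 lower (36.4%) and a median of 1.48 (all genes -0.42), adding 0.5 gave 4 higher (11.9%) and 3 lower (9.80%), and in scATAC-seq adding 5 gave 0 higher (21.1%). Where a value moved, the cause was not tested.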
